A study of Glycine max with 24 samples.

Results

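The step described here is that from stage 1 to stage 2 of seed fill in HiPro, a soybean line with high seed protein: 3 arrays of seed of more than 50 and up to 100 mg (stage 2) against 3 arrays of seed of 25 to 50 mg (stage 1), chosen by the labels, which makes 6 of the 24 arrays of the series. HiPro, labelled HiProt and with the germplasm name LD04-15154, inherited the high protein allele of the linkage group I quantitative trait locus from wild soybean, Glycine soja PI468916, in a cultivated Glycine max background. Its near-isogenic partner LoPro, labelled LoProt and named LD04-15146, kept the Glycine max allele there and was sampled in the same way. Both lines were raised in growth chambers on field soil supplied with Bradyrhizobium japonicum inoculant and fertilizer, and all seed was taken at the R5 stage of the plant. Each replicate pooled seed from 3 plants, and the same plants gave the seed of every stage of that replicate, so an array at stage 2 pairs with the array of the same number at stage 1. The line pair stands for a single introgression, and the seed was profiled whole, so embryo, seed coat and any remaining endosperm were measured together. In such samples a lower signal from fewer cells of a type and one from less RNA per cell cannot be told apart.

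In a legume seed the embryo stops dividing before it fills. Its cotyledon cells then enlarge and lay down 7S and 11S globulins, which in soybean are the beta-conglycinins and glycinins, in protein storage vacuoles, and triacylglycerol in oil bodies coated with oleosins. Proteins of the late embryogenesis abundant (LEA) type, which protect cells during drying, accumulate later in seed development, along with protease inhibitors, lectins, lipoxygenases and the iron store ferritin. Division of cotyledon cells needs cyclins, cyclin-dependent kinases and the machinery of DNA replication, and growth of the walls needs pectin- and glucan-modifying enzymes.

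Transcript accumulation was measured on Soy GeneChip arrays, with 1 array per sample. The deposited values are probeset signals, in arbitrary units on a linear scale, each array brought to the same mean, and values given below for single arrays are such signals, replicates 1 to 3 in order. A log2 change is the log2 signal at stage 2 minus that at stage 1, so 1 on this scale is a 2-fold rise. A probeset was called where its Benjamini-Hochberg adjusted p was under 0.05 over 37701 soybean probesets and its change was at least 1.5-fold, in a limma fit with the plant pool as a block. The fit took all 24 arrays, so these p-values rest on a spread shared by the 6 plant pools of both lines. The LoPro arrays thus enter the SE of a HiPro change. There were n = 3 arrays per line and stage throughout. Replicate arrays correlated at 0.955 to 0.966 at stage 2 and 0.960 to 0.963 at stage 1 (Pearson's r of log2 signals across probesets, which are not independent replicates). The arrays' number limits the precision, and the table gives no detection calls.

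Between the stages 945 probesets (2.51%) were called in HiPro, 457 of them higher (1.21%) and 488 lower (1.29%) at stage 2. The rises were the larger ones: 230 probesets rose and 179 fell by at least 2-fold, 58 rose and 10 fell by at least 4-fold, and 18 rose and 4 fell by at least 8-fold. Seed storage proteins led the rises among named genes, with oil body, LEA and maturation proteins behind them, and mitotic kinases and cyclins, wall enzymes and vegetative lipoxygenases were among the falls. The median log2 change was 1.01 over the rises and -0.87 over the falls, with a median SE of 0.19, while the median over all probesets was -0.066. In 457 of 457 rises and 487 of 488 falls all 3 pools moved the same way, as did 16.0% and 26.8% of all probesets. The stage 2 arrays lay wholly above the stage 1 arrays for 422 of the rises and wholly below them for 453 of the falls, against 7.93% and 14.9% of all probesets. The calls were selected on these same arrays, so this agreement of pools and arrays is no added support. For the 10 largest named rises and the 10 largest named falls, arrays that do not overlap were also a condition of being named. A description or a single gene symbol was at hand for 276 of the rises and 168 of the falls, and the other 501 called probesets have neither here. Probesets with a description, most of which the study itself chose on these arrays, were called higher in 11.9% and lower in 6.11% of 1653, those with a symbol alone in 0.981% and 0.821% of 8158, and those with neither in 0.649% and 1.15% of 27890.0, so the counts of a list are to be read against these shares.

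The balance of directions depended on the scaling. With each array centred on its median, 777 probesets were called higher and 248 lower, so that the rises made up 75.8% of the calls in place of 48.4%. Centring moved every change by 0.12 and the median of all probesets from -0.066 to 0.052. All 457 rises and 248 of the falls kept their call after centring, and 436 rises and 292 falls after quantile normalization, which called 590 higher and 327 lower (64.3% higher). Without the plant pool as a term, 211 rises (0.56%) and 172 falls (0.456%) were called, all among the calls above. The counts fell when any HiPro pool was left out, to 189 higher and 77 lower without pool 1, 172 higher and 52 lower without pool 2 and 257 higher and 168 lower without pool 3, and 104 rises and 16 falls were called in all 3 of these fits. Leaving out 1 stage 2 array gave 289 higher and 185 lower without replicate 1, 257 higher and 149 lower without replicate 2 and 328 higher and 275 lower without replicate 3. Leaving out 1 stage 1 array gave 307 higher and 219 lower without replicate 1, 288 higher and 110 lower without replicate 2 and 344 higher and 266 lower without replicate 3.

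**Figure D1:**
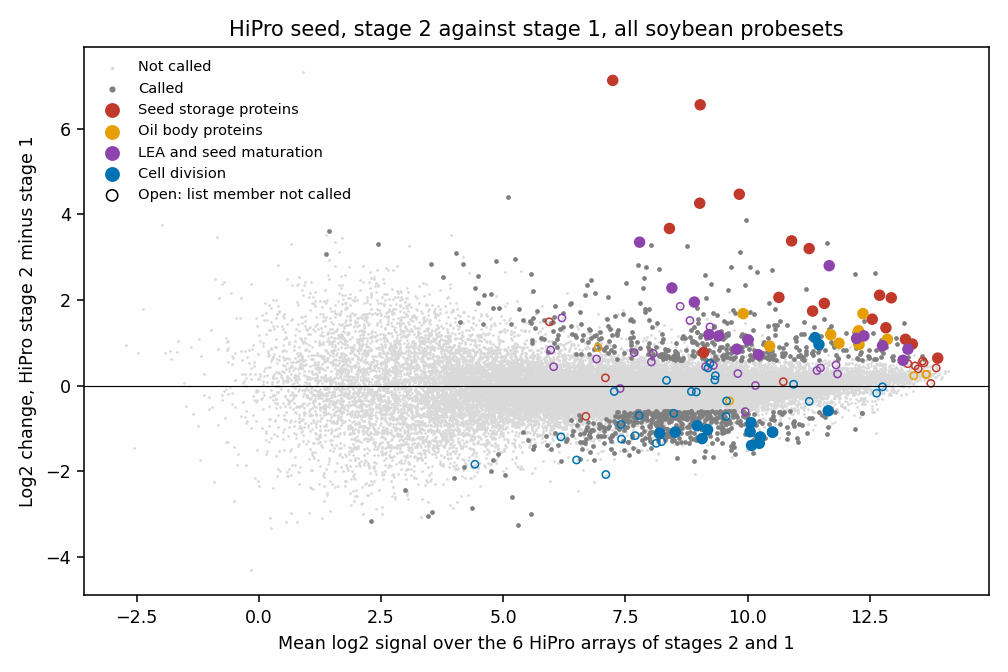
Log2 change of each soybean probeset in HiPro (vertical axis, stage 2 minus stage 1) against its mean log2 signal over the 6 arrays (horizontal axis), with called probesets in dark grey and members of 4 gene lists in colour, filled where called. The storage proteins reach a log2 change of 7.13, and the called cell division probesets lie below 0 except for 2.

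Seed storage proteins rose more than any other list described here. Of 29 probesets, 18 were called higher at stage 2 and 0 lower, with a median log2 change of 1.35 against -0.066 over all probesets. The stage 2 arrays lay wholly above the stage 1 arrays for 25 of the 29, against 7.93% of all probesets. Of the 29, 62.1% were called higher, against 11.9% of described probesets. Since the study chose most described probesets on these arrays, the direction of this and the following lists is no independent evidence. The count was 11, 13 and 13 without pools 1, 2 and 3, and 13 to 17 with 1 array left out.

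The beta chain of beta-conglycinin, the 7S globulin subunit that accumulates last, showed the largest rise. The probeset of CG-BETA-1, a gene of that chain, read 2208, 2266 and 1151 at stage 2, against 17.3, 15.9 and 7.67 at stage 1. The stage 2 arrays lay far above the stage 1 arrays in every pool, and the stage 1 signals were close to the 10th percentile of all signals, 14.5 (log2 change 7.13, SE 1.06, adjusted p = 0.00125). With signals below that percentile raised to it, the log2 change was 6.82. A probeset that several transcripts of the beta chain can share read 6071, 6026 and 3571 at stage 2, against 37.9, 60.9 and 67.6 at stage 1. It changed by 6.56 on the log2 scale (SE 0.77, adjusted p = 0.000237), and pool 3 was again the lowest at stage 2. The other CG-BETA-1 probeset rose by 4.26 (adjusted p = 0.00235) and a further beta chain probeset by 1.92 (adjusted p = 0.00293), with signals of 6746, 7371 and 4123 at stage 2, against 1349, 2162 and 1304 at stage 1. The alpha' chain, another subunit of the same trimer, read 3736, 4286 and 2145 at stage 2, against 733, 839 and 766 at stage 1, without overlap (log2 change 2.06, SE 0.29, adjusted p = 0.000744).

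Glycinins, the 11S globulins, differed among themselves in how far their signals rose. GY3 read 5202, 5422 and 2813 at stage 2, against 155, 268 and 175 at stage 1, a 22.2-fold rise (log2 change 4.47, SE 0.45, adjusted p = 6.63e-05). GY5 read 15424, 18409 and 14403 at stage 2, against 3199.6, 4733 and 3804 at stage 1 (log2 change 2.05, adjusted p = 0.00156). The stages did not overlap for either gene. GY4 had 2 probesets, which rose by 2.11 and 1.08 (adjusted p = 0.000446 and 0.0118). GY1 and GY2 did not pass. GY1 read 13077, 15405 and 13580.0 at stage 2, against 12164, 13086 and 15462 at stage 1, and its stages overlapped (log2 change 0.05, adjusted p = 0.921); its other probeset gave 0.51 (adjusted p = 0.104). GY2 read 14998, 16454 and 13607 at stage 2, against 9395, 10143 and 10739 at stage 1, wholly above at stage 2 but with an adjusted p of 0.0759 (log2 change 0.57), and its second probeset gave 0.41 (adjusted p = 0.214). The highest signal of a HiPro array was 14547 to 17712 at stage 1 and 18218 to 21625 at stage 2. The GY1 and GY2 signals thus lay near the top of the range of these 2 stages. The highest signal of later HiPro arrays was 21410 to 30613 at stage 3 and 26310 to 34480 at stage 4. How far signals as bright as those of GY1 and GY2 can still rise was not tested, which also limits the bright P89, P91 and KTI3 probesets below. GY7 read 184, 193 and 85.8 at stage 2, against 114, 196 and 93.8 at stage 1 (adjusted p = 0.772). A probeset of CG-1, a beta-conglycinin gene, was the only member of the list below 0, at -0.72 (adjusted p = 0.33).

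Vicilin-like and allergen genes of the storage vacuole rose with the globulins. SBP2, which encodes sucrose-binding protein 2, a relative of the 7S globulins, read 6310.0, 6487 and 5679 at stage 2, against 519, 762 and 522 at stage 1. All stage 2 arrays exceeded all stage 1 arrays, and the rise was 10.4-fold (log2 change 3.38, SE 0.32, adjusted p = 3.96e-05). The array also carries control probesets of sucrose-binding protein, whose changes differed in size. The 5′ one rose by 3.67 (adjusted p = 6.8e-05), the middle one by 1.35 (adjusted p = 0.000577), and the 3′ one gave 0.53 (adjusted p = 0.0764). Several transcripts can share the middle and 3′ probesets and that of SBP2, so these values need not be those of 1 transcript. BG7S-1, a basic 7S globulin, read 8841, 10585 and 4427 at stage 2, against 365, 2979 and 493 at stage 1, where pool 2 stood high at stage 1 (log2 change 3.20, SE 0.67, adjusted p = 0.014). Its relative BG7S-2 read 110.2, 142 and 69.3 at stage 2, against 27.0, 53.7 and 33.8 at stage 1 and did not pass (adjusted p = 0.141). LOC547942, annotated as the allergen Gly m Bd 28K, rose by 1.55 (adjusted p = 0.00125), a probeset described as PreproMP73, a vicilin-type protein of pumpkin, by 1.74 (adjusted p = 0.000237), and GM2S-1, a 2S albumin gene, by 0.97 (adjusted p = 0.0206). A globulin-like cupin rose by 0.77 (adjusted p = 0.0464), while LOC100787186, described as a sucrose-binding protein precursor, gave 0.46 (adjusted p = 0.134). P34, a vacuolar thiol protease homolog, had 1 probeset called, at 0.64 (adjusted p = 0.034), and 1 not called, at 0.39 (adjusted p = 0.242).

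**Figure D2:**
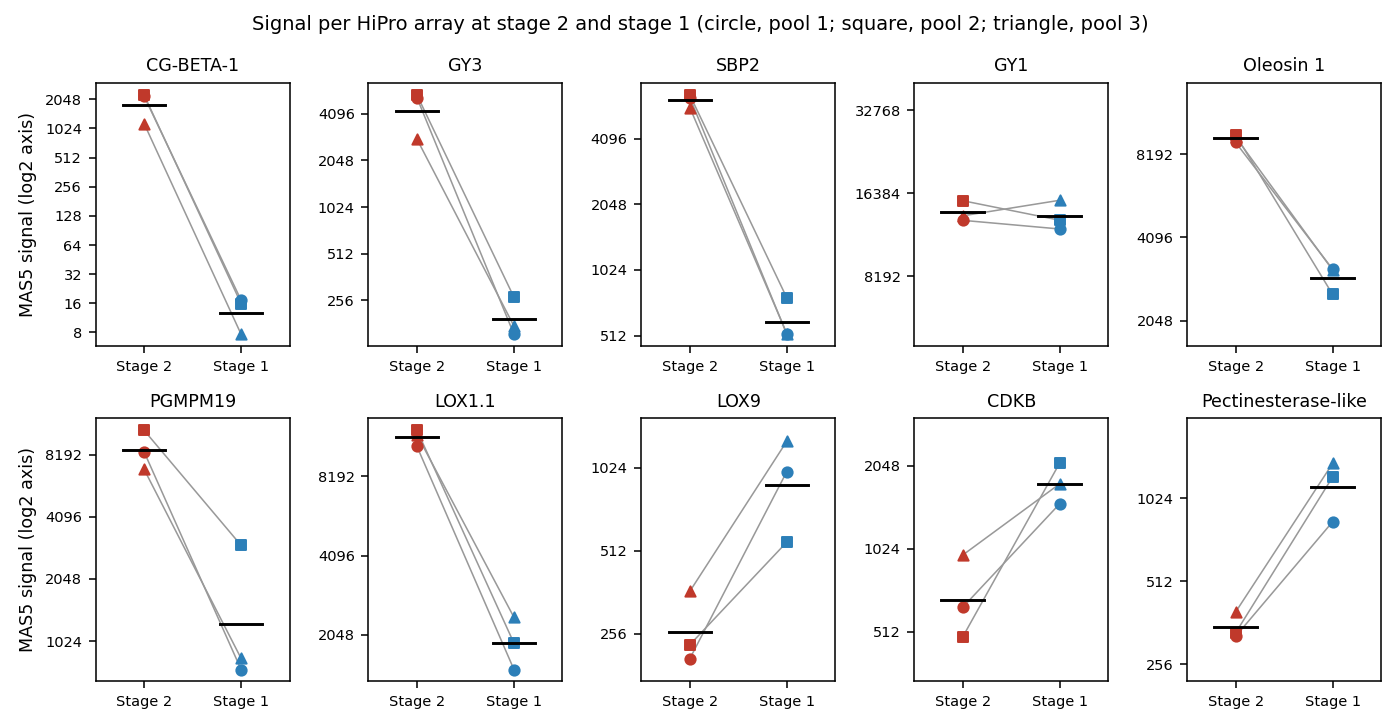
MAS5 signal of 10 probesets (vertical axes, log2 scale, each with its own range) on the 3 HiPro arrays of stage 2 (red, left) and the 3 of stage 1 (blue, right); lines join arrays of the same plant pool and bars are geometric means. CG-BETA-1 lies between 1151 and 2266 at stage 2 and between 7.67 and 17.3 at stage 1, whereas the GY1 arrays of both stages overlap.

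Most oil body proteins rose. Of 13 probesets, 9 of them described, 8 were called higher (61.5%, against 11.9% of all described probesets) and 0 lower (median log2 change 0.96). The count was 7 with any 1 array or any 1 pool left out. A probeset described as oleosin 1 read 9064, 9650.3 and 9476 at stage 2, against 3144, 2547 and 3123 at stage 1, a change of 1.68 that the pools shared closely (SE 0.17, adjusted p = 7.18e-05). One described by a coffee oleosin, OLE-5, read 1750.4, 1664 and 1741 at stage 2, against 489.8, 722 and 440.0 at stage 1 (log2 change 1.68, adjusted p = 0.000237), and a second OLE-5 probeset rose by 0.99 (adjusted p = 0.00041). Neither overlapped between the stages. Probesets of oleosin 2 rose by 1.28 and 1.08 (adjusted p = 0.000246 and 0.000577), an oleosin isoform by 1.19 (adjusted p = 0.0228), and one described as OleI by 0.96 (adjusted p = 0.00115). LOC100787835, a steroleosin, which is a sterol dehydrogenase of the oil body surface, rose by 0.92 (adjusted p = 0.000556), and a further oleosin isoform gave 0.89 (adjusted p = 0.0576). The oleosin genes P89 and P91 did not pass: P91 read 11317, 12582 and 11281 at stage 2, against 9452, 9720.4 and 10763 at stage 1 (adjusted p = 0.448), and the 3 probesets of P89 gave 0.26, 0.26 and -0.36 (adjusted p = 0.437, 0.481 and 0.389). The stage 1 signals of the P89 probesets that gave 0.26 were already 10771, 11500.0 and 13142 on one and 10559, 11697 and 13468 on the other.

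LEA and seed maturation proteins formed the third list that rose: 14 of 34 probesets were called higher (41.2%) and 0 lower, with a median log2 change of 0.80. A description was at hand for 18 of the 34, and 11.9% of all described probesets were called higher. PM31, a seed maturation protein of the small heat shock class, read 857, 1010.3 and 411 at stage 2, against 39.7, 119.6 and 71.0 at stage 1. The stages did not overlap, although replicate 2 of stage 1 lay above the other two (log2 change 3.35, SE 0.72, adjusted p = 0.0162). PGMPM19 read 8456, 10747 and 6959.7 at stage 2, against 746, 2979 and 845 at stage 1, again with replicate 2 highest at stage 1 (log2 change 2.80, SE 0.55, adjusted p = 0.00859). PM22 read 944, 957 and 511 at stage 2, against 118, 439 and 77.9 at stage 1 (log2 change 2.28, adjusted p = 0.0194), and PM28 rose by 1.95 (adjusted p = 0.00329). Smaller rises were those of PM1 (1.19, adjusted p = 0.0414), PM25 (1.16, adjusted p = 0.0405) and PM9 (1.07, adjusted p = 0.0347). PM12, a dehydrin, rose on both of its probesets, by 1.16 and 1.10 (adjusted p = 0.00323 and 0.000601), PM30 on all 3, by 0.85 to 0.93 (adjusted p = 0.00402 to 0.00773), and LEA5 by 0.59 (adjusted p = 0.0269). TENA_E, also known as PM36 and a member of a family of thiamin-salvage proteins in Arabidopsis, rose by 0.72 (adjusted p = 0.037). Several other members were scattered between pools. SBP65, a biotin-binding seed protein, read 1282, 1528 and 212 at stage 2, against 107, 798 and 105 at stage 1, and PGMPM18 read 205, 225 and 44.3 at stage 2, against 23.2, 78.9 and 42.1 at stage 1, so that the stages overlapped for both (log2 change 1.85 and 1.58, adjusted p = 0.28 and 0.263). PM41 and PM35 gave 1.52 and 1.37 and MP2 0.44 (adjusted p = 0.233, 0.123 and 0.784), and PM29 was below 0, at -0.61 (adjusted p = 0.0775). This list leaned on pool 1: without it 1 member was called, against 6 without pool 2 and 6 without pool 3. With 1 array left out, 6 to 9 members were called, and without the pool term 7.

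Outside these lists the largest named rises belonged to genes of varied or unknown function. LOC547496, which has no description here, read 4203, 4302 and 3127 at stage 2, against 131, 575 and 240.2 at stage 1 (log2 change 3.87, SE 0.54, adjusted p = 0.000744). LOC100306653, described only by a rice protein of unknown function, read 10060.0, 10536 and 9466 at stage 2, against 749, 1132 and 1166 at stage 1 (log2 change 3.33, SE 0.32, adjusted p = 6.09e-05). Both were wholly higher at stage 2, which the rule for naming the largest rises required. A short chain dehydrogenase read 982, 1020.0 and 536 at stage 2, against 55.9, 139 and 73.6 at stage 1 (log2 change 3.29, adjusted p = 0.00154), and LOC100809384, described in the same words, rose by 3.13 (adjusted p = 0.00268). The lowest adjusted p of the comparison belonged to a probeset described as a putative cytochrome P450 monooxygenase, which read 618, 630.1 and 663 at stage 2, against 108, 95.2 and 77.8 at stage 1 (log2 change 2.78, SE 0.16, adjusted p = 1.04e-07). Its partner probeset to the same transcript rose by 2.82 (adjusted p = 1.91e-07). Probesets described as glucan 1,3-beta-glucosidase, an enzyme that cleaves beta-glucans, rose by 2.23, 2.65 and 2.73 (adjusted p = 0.00165, 0.000577 and 0.00127). The probeset that rose by 2.65 read 2758, 2696 and 3395 at stage 2, against 346, 534 and 552 at stage 1. A glucosyltransferase described as IS5a rose by 2.52 (adjusted p = 0.000237), and a probeset whose closest Arabidopsis gene is annotated as transcription activator-related by 3.27 (adjusted p = 0.000329). SFERH-2, which encodes a ferritin, the plastid iron store, read 515, 437 and 357 at stage 2, against 119.7, 128 and 148 at stage 1 (log2 change 1.72, adjusted p = 0.0137). Its second probeset gave 1.26 and did not pass (adjusted p = 0.0676), and SFERH-3 gave -0.51 (adjusted p = 0.149). Described as major intrinsic proteins, aquaporin homologs of the Arabidopsis tonoplast proteins alpha-TIP and beta-TIP, which mark protein storage vacuoles, rose by 0.63 and 0.59 (adjusted p = 0.0258 and 0.0192). NOD33, described as a putative phosphatase, rose by 1.26 (adjusted p = 0.0251), and universal stress protein probesets by 1.36 and 1.23 (adjusted p = 0.00282 and 0.000246).

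Lipoxygenases, which oxidize polyunsaturated fatty acids, split by type. Of 21 probesets with a lipoxygenase symbol, 2 rose and 8 fell (median log2 change -0.74). A description was at hand for 7 of the 21, and of all described probesets 11.9% rose and 6.11% fell. The other 14 held 0 rises and 5 falls. Of all probesets with a symbol alone, 0.981% rose and 0.821% fell. Both rises of the list were seed lipoxygenases. LOX1.1 read 10639, 12249 and 11785 at stage 2, against 1512, 1904 and 2387 at stage 1, a 6.07-fold rise without overlap (log2 change 2.60, SE 0.32, adjusted p = 0.000287). LOX3 rose by 1.11 on one probeset (adjusted p = 0.00781), while another gave 0.58 (adjusted p = 0.068), and LOX2, the third seed enzyme, gave 0.71 (adjusted p = 0.0511). The falls were those of LOX9 and LOX7, which are vegetative lipoxygenases, on 4 probesets each. One LOX9 probeset had the largest fall that the rule for named genes admits, a rule that requires stages without overlap. It read 208, 234 and 366 at stage 2, against 994, 552 and 1281 at stage 1 (log2 change -1.77, SE 0.21, adjusted p = 0.000246). The other LOX9 probesets changed by -1.14 to -1.02 (adjusted p = 0.000543 to 0.0146). Those of LOX7 changed by -1.33 to -1.04 (adjusted p = 0.00851 to 0.0266). The most changed LOX7 probeset read 219, 247 and 291 at stage 2, against 839, 436 and 685 at stage 1. Replicate 2 was the lowest at stage 1, and the stages stayed apart. LOX probesets of near-identical genes can share transcripts, so the split between LOX7, LOX9 and their relatives is uncertain. Without pools 1, 2 and 3 the falls numbered 2, 3 and 5, 3 without replicate 1 of either stage, 5 without replicate 2 of stage 2 and 3 without the pool term.

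Among 37 protease inhibitor and lectin probesets, 30 of them described, 5 rose and 5 fell (13.5% each, median log2 change 0.06). Of all described probesets 11.9% rose and 6.11% fell. Without pools 1, 2 and 3 the rises numbered 3, 2 and 3 and the falls 0, 0 and 3, and without the pool term they numbered 2 and 1. KTI1, a Kunitz trypsin inhibitor, read 15959, 18070.0 and 12789 at stage 2, against 5419, 7066 and 4755 at stage 1, without overlap (log2 change 1.45, SE 0.17, adjusted p = 0.000225). BBI-2, a Bowman-Birk inhibitor, rose by 1.90 (adjusted p = 0.0375), a cystatin by 2.36 (adjusted p = 0.0218), LOC100809340, another cystatin, by 0.93 (adjusted p = 0.000733), and KTI-3 by 0.66 (adjusted p = 0.00489). A probeset under the symbol KTI3, of 14387, 17238 and 13464 at stage 2, against 10571, 12301 and 14300.0 at stage 1, overlapped between the stages and was not called (0.28, adjusted p = 0.433). On the other side stood trypsin inhibitor p20, which read 1658, 1557 and 1645 at stage 2, against 3591, 4245 and 2789 at stage 1 on one probeset (log2 change -1.11, SE 0.29, adjusted p = 0.0444) and changed by -1.34 on the other (adjusted p = 0.028). The other falls of the list, LOC100305686 (-1.22, adjusted p = 0.00531), LOC100499716 and an extensin-like probeset, belong to the lipid transfer protein family, which shares a domain with these inhibitors.

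Genes of nitrogen and sulfur assimilation moved both ways. GDH1, a glutamate dehydrogenase, read 1951, 1926 and 1207 at stage 2, against 1203, 978 and 949.8 at stage 1 (log2 change 0.67, adjusted p = 0.0421), whereas GDH2 fell by 0.71 on the log2 scale (adjusted p = 0.0311). NADH glutamate synthase rose by 0.66 (adjusted p = 0.0419) and ATP sulfurylase, the first enzyme of sulfate assimilation, by 0.69 (adjusted p = 0.0192). The glutamine synthetases GS1-GAMMA, which is cytosolic, and GS-2, which is plastidic, changed by -0.75 and -0.59 (adjusted p = 0.0395 and 0.0176). The embryo-specific urease LOC547716 read 6319, 6472 and 6234 at stage 2, against 2680.2, 2774 and 2663 at stage 1, with little spread at either stage (log2 change 1.23, SE 0.17, adjusted p = 0.000601), and its accessory protein UreD, LOC547706, rose by 0.77 (adjusted p = 0.00247). PEPC7, a phosphoenolpyruvate carboxylase, fell by 0.63 (adjusted p = 0.0278). These genes were chosen after their values were seen.

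In the list of sugar and amino acid transport 8 of 50 probesets rose (16.0%) and 1 fell (2.0%), with a median log2 change of 0.18. A description was at hand for 29 of the 50, and of all described probesets 11.9% rose and 6.11% fell. Without pools 1, 2 and 3, the rises numbered 0, 2 and 3. They numbered 2 to 7 with 1 array left out and 1 without the pool term. SWEET17, of a family of sugar exporters, read 766, 624 and 605 at stage 2, against 407, 285 and 294 at stage 1 on one probeset (log2 change 1.03, adjusted p = 0.0137) and rose by 0.80 on another (adjusted p = 0.0469). Peptide transporters rose by 1.35 and 0.70 (adjusted p = 0.0419 and 0.00247), an amino acid/polyamine transporter by 1.08 (adjusted p = 0.0421) and YSL transporter 3, of a family that carries metal chelates, by 0.61 (adjusted p = 0.0242). The remaining rises are described as symbiotic ammonium transporters, a name used for bHLH-type proteins: one read 178, 153 and 179.5 at stage 2, against 57.6, 116 and 48.0 at stage 1, where replicate 2 of stage 1 came closest to stage 2 (log2 change 1.31, adjusted p = 0.00511), and the other rose by 0.99 (adjusted p = 0.0334). The fall was an auxin transporter-like probeset (-0.75, adjusted p = 0.0453).

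Cell division genes fell. Of 41 probesets, 13 were called lower (31.7%) and 2 higher (4.88%) at stage 2, with a median log2 change of -0.91. A description was at hand for 36 of the 41, and of all described probesets 6.11% were called lower and 11.9% higher. The stage 2 arrays lay wholly below the stage 1 arrays for 26 of the 41, against 14.9% of all probesets. CDKB, the plant-specific kinase of the transition to mitosis (LOC547738), was measured by 3 probesets that all fell. The most changed read 627, 489.8 and 970.2 at stage 2, against 1489, 2094 and 1759 at stage 1, and the stages did not overlap (log2 change -1.40, SE 0.27, adjusted p = 0.00803). The others changed by -1.24 and -1.09 (adjusted p = 0.00685 and 0.0192). Mitotic cyclins fell alongside: cyclin S13-6 by 1.20 and 1.03 on its probesets (adjusted p = 0.0162 and 0.00284), cyclin-1 by 1.11 (adjusted p = 0.0339) and an a2-type cyclin by 0.94 (adjusted p = 0.0484). The S13-6 probeset with the lower adjusted p read 355, 420.4 and 449 at stage 2, against 671, 857 and 998 at stage 1. Every stage 2 array was below every stage 1 array. Aurora-1, a kinase of chromosome segregation, changed by -0.87 and -1.08 (adjusted p = 0.0272 and 0.0486), and CCS52, an activator of the anaphase-promoting complex, by -1.09 (adjusted p = 0.0156). Among chromatin proteins, AT-1SNBP, an HMG I/Y protein, read 627, 731 and 949 at stage 2, against 1429.9, 2266 and 2208 at stage 1 (log2 change -1.35, SE 0.15, adjusted p = 0.000225), and histone H2A variant 1, LOC100796183, changed by -0.59 (adjusted p = 0.0374) with overlapping stages, 2156, 2093 and 3986 at stage 2, against 3465, 4099 and 4358 at stage 1. DNA topoisomerase 2, placed outside the list, fell by 1.06 (adjusted p = 0.0308), a cyclin-specific ubiquitin carrier protein by 1.09 (adjusted p = 0.0382) a microtubule motor probeset by 1.27 (adjusted p = 0.0311) and a high mobility group protein described as 98b by 1.33 (adjusted p = 0.0452). A kinesin heavy chain had the most negative value of the list, -2.08, and did not pass (adjusted p = 0.185).

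The rises in this list were 2 homologs of Cdc48, an AAA-ATPase of protein turnover, at 1.12 and 0.96 (adjusted p = 0.000303 and 0.000601). The probeset at 1.12 read 4549, 3986 and 3358 at stage 2, against 1726, 1922 and 1792 at stage 1. The falls were sensitive to single arrays: 2, 2 and 4 were called without pools 1, 2 and 3, 2 without replicate 2 of stage 1, 8 without its replicate 3, 3 without replicate 2 of stage 2, 6 without replicate 1 of stage 2 and 6 without its replicate 3. They numbered 7 without the pool term and 9 after centring.

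Wall proteins were called in both directions. Of 79 cell wall probesets, 55 of them described, 7 fell (8.86%) and 2 rose (2.53%), with a median log2 change of -0.03. Of all described probesets 6.11% fell and 11.9% rose. Median centring and quantile normalization each gave 4 falls and 4 rises. The list does not hold the glucan 1,3-beta-glucosidase probesets above, and 2 of its falls are lipid transfer-like by their Arabidopsis match. A pectinesterase-like probeset read 323, 333 and 396 at stage 2, against 841, 1222 and 1368 at stage 1, without overlap (log2 change -1.68, SE 0.31, adjusted p = 0.00563). An extensin-like probeset read 114, 96.2 and 118 at stage 2, against 407, 313 and 301 at stage 1 (log2 change -1.63, SE 0.43, adjusted p = 0.0449), and another, LOC100499716, changed by -1.26 (adjusted p = 0.00803). These are the falls whose Arabidopsis match is a lipid transfer protein. A cellulose synthase fell by 1.24 (adjusted p = 0.0202), endo-1,4-beta-glucanase by 1.14 (adjusted p = 0.0146), an alpha-expansin by 0.63 (adjusted p = 0.0273) and polygalacturonase by 0.62 (adjusted p = 0.0486). A different cellulose synthase went the other way and read 1432, 1412 and 1842 at stage 2, against 376, 467 and 532 at stage 1 (log2 change 1.77, SE 0.25, adjusted p = 0.000733), as did a pectin acetylesterase (1.26, adjusted p = 0.00305). The falls numbered 1, 0 and 3 without pools 1, 2 and 3, 1 to 5 with 1 array left out, and 3 without the pool term.

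The other large named falls were of several kinds. LOC100796752, of the glucose-methanol-choline oxidoreductase family, read 667, 605 and 664 at stage 2, against 1698, 2112 and 1964 at stage 1 (log2 change -1.57, SE 0.30, adjusted p = 0.00798), and a probeset with the same description changed by -1.37 (adjusted p = 0.0064). GASA33, of a family of small gibberellin-regulated peptides, read 541, 591 and 357 at stage 2, against 1475, 1602 and 1099 at stage 1 (log2 change -1.50, SE 0.32, adjusted p = 0.0157). For LOC100796752 and GASA33 the stages were apart, which the rule for naming the largest falls required. SODB, an iron superoxide dismutase, read 100.2, 107 and 109 at stage 2, against 413, 194 and 336 at stage 1, with replicate 2 lowest at stage 1 (log2 change -1.51, SE 0.36, adjusted p = 0.0269). SODB2, its paralog, read 1583, 1431 and 1058 at stage 2, against 5119.9, 1968 and 3674 at stage 1 (log2 change -1.32, adjusted p = 0.00797), while the copper-zinc enzyme SOD1 rose by 0.64 (adjusted p = 0.00231). SC-03, a thiamin biosynthetic enzyme, showed the same low replicate 2 at stage 1, with 478, 527 and 479 at stage 2, against 1819, 774 and 1599 at stage 1 (log2 change -1.41, adjusted p = 0.0041). LOC100784841 and LOC100791380, which have no description here, changed by -1.58 and -1.52 (adjusted p = 0.0308 and 0.00136), a hypothetical protein by -1.48 (adjusted p = 0.0441) and LOC100809047, a glycoside hydrolase of family 1, by -1.45 (adjusted p = 0.0308). DMT1 fell by 0.93 (adjusted p = 0.00644), Patellin-4 and Patellin-6, lipid-binding proteins of membrane traffic, by 1.43 and 1.05 (adjusted p = 0.00374 and 0.00774), and MIPS4, an inositol phosphate synthase gene, by 1.09 (adjusted p = 0.00483). Of the 10 largest falls, those of LOX9 and LOC100791380 were also called without each of the 3 pools.

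Transcription factors held few calls. Of 464, 9 rose (1.94%, against 1.21% of all probesets) and 6 fell (1.29%, against 1.29%), with a median log2 change of -0.03. A description was at hand for 104 of the 464, and of all described probesets 11.9% rose and 6.11% fell. The other 360 held 1 rise and 1 fall, where 0.981% and 0.821% of probesets with a symbol alone were called. After centring 22 rose and 4 fell, the rises numbered 1, 3 and 5 and the falls 3, 1 and 3 without pools 1, 2 and 3, and without the pool term they were 3 and 4. A NAI1-like bHLH factor read 36.2, 36.1 and 22.5 at stage 2, against 1.53, 15.3 and 3.50 at stage 1 (log2 change 2.83, SE 0.69, adjusted p = 0.03). Most of its stage 1 signals lay below the 10th percentile of 14.5, and with that floor its log2 change was 1.06 and no longer passed (adjusted p = 0.0597). A GATA factor (GATA transcription factor 24) read 888, 849 and 905 at stage 2, against 428, 499 and 384 at stage 1, with little spread between pools (log2 change 1.02, SE 0.11, adjusted p = 0.000186). The nuclear factor Y subunit B-3 rose by 1.17 (adjusted p = 0.00298), NAC2 by 0.81 and 0.63 (adjusted p = 0.0228 and 0.00898) and a factor close to Arabidopsis CRF4, a cytokinin response factor, by 0.64 (adjusted p = 0.0188). Falls were those of a scarecrow-type factor, which read 601, 413 and 567 at stage 2, against 1056, 1441 and 1532 at stage 1 (log2 change -1.35, SE 0.20, adjusted p = 0.00146), of a homeobox-START protein (-0.89, adjusted p = 0.00146), of the homeobox gene LOC100527815 (-0.89, adjusted p = 0.023), of ICE4 (-0.75, adjusted p = 0.0117) and of LOC100101858, a MYB factor whose closest Arabidopsis gene is TT2, a regulator of seed coat proanthocyanidins (-0.75, adjusted p = 0.0305). By family, 1 of 102 MYB probesets rose (MYB70, 0.85, adjusted p = 0.0371), 1 of 103 WRKY probesets fell (WRKY29, -0.69, adjusted p = 0.0223), and none of 89 bZIP probesets was called. Of the 89, 8 had an unadjusted limma p under 0.05, as did 6654 of all 37701 probesets. BZIP132, the bZIP with the lowest p, read 3836, 4149 and 3197 at stage 2, against 2816, 2507 and 2371 at stage 1 and gave 0.53, which is under 1.5-fold (adjusted p = 0.0125).

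Hormone-related probesets, 22 of 74 with a description, had 5 higher (6.76%) and 2 lower (2.7%), with gibberellin-regulated peptides on both sides. The other 52 held 0 calls, and of all described probesets 11.9% were called higher and 6.11% lower. Without pools 1, 2 and 3 the rises numbered 3, 2 and 6 and the falls 0, 0 and 1, and centring gave 10 and 1. GASA12 read 8531, 9390.0 and 9051 at stage 2, against 5295, 4949.5 and 4904 at stage 1 (log2 change 0.83, SE 0.14, adjusted p = 0.00247), a further gibberellin regulated protein rose by 1.14 (adjusted p = 0.00238) and GIR1 by 0.98 (adjusted p = 0.00125), against the fall of GASA33. UGT84B2, a glucosyltransferase, rose by 1.24 (adjusted p = 0.00452). Flavonoid probesets, 32 of 96 with a description, were balanced, with 4 higher and 4 lower (4.17% each, median log2 change 0.00). This balance moved with the scaling, to 14 higher and 1 lower after centring. The counts were 3, 1 and 2 higher and 0, 0 and 1 lower without pools 1, 2 and 3. IFS2, isoflavone synthase, read 1054, 997 and 989 at stage 2, against 613, 583 and 489 at stage 1 (log2 change 0.86, SE 0.14, adjusted p = 0.00242). The isoflavone reductase-like LOC547570 rose by 2.61 (adjusted p = 0.00307) and chalcone reductase probesets by 1.40 and 1.09 (adjusted p = 0.02 and 0.0464). DFR1 and CHI2-A, of the anthocyanin and flavonoid branch, fell by 0.64 and 0.93 (adjusted p = 0.0151 and 0.0395), and 4CL4, a 4-coumarate:CoA ligase, by 1.21 (adjusted p = 0.0428).

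The remaining lists held few calls. For all probesets the shares were 1.21% higher and 1.29% lower, and for described ones 11.9% and 6.11%. Fatty acid and oil synthesis had 3 higher and 9 lower of 54, of which 2 rises and 8 falls were the lipoxygenases above. LOC100802887, described as a lipoxygenase but outside the lipoxygenase list, which was built on the LOX symbols (-0.63, adjusted p = 0.0483), was the remaining fall. The other rise was FAD3B, an omega-3 desaturase, at 0.66 (adjusted p = 0.00374). Glutathione S-transferases and peroxidases had 3 higher and 0 lower of 76, LOC548029, GST 11 (1.59, adjusted p = 0.000601), GSTU28 (0.72, adjusted p = 0.0047) and LOC547898, described as Sali3-2 (0.96, adjusted p = 0.00247), which is listed through its Arabidopsis match. Cytochrome P450s chosen by symbol, a list without the described monooxygenase above, had 2 higher and 3 lower of 40 (6 higher and 1 lower after centring, and 0, 0 and 1 lower without pools 1, 2 and 3), with CYP93E1, a soyasapogenol hydroxylase, at 0.84 (adjusted p = 0.000577) CYP74A1, an allene oxide synthase of jasmonate synthesis, at 0.78 (adjusted p = 0.0119), CYP76O2 at -0.97 and -0.61 (adjusted p = 0.0188 and 0.0456) and CYP90A15 at -0.59 (adjusted p = 0.0171). Lipid transfer proteins and hydrolases had 1 higher and 5 lower of 29 (0, 0 and 3 lower without pools 1, 2 and 3), with a phospholipase A2, LOC100787294, at 0.64, a GDSL lipase at -0.68 and the lipid transfer-like LOC100798112 at -0.61 (adjusted p = 0.00154, 0.047 and 0.0106). Microtubules had 1 higher and 2 lower of 12, with TUBB3, a beta-tubulin, at 0.76 and the microtubule end-binding EB1 homolog at -0.89 (adjusted p = 0.00886 and 0.0222). The ubiquitin system had 1 higher and 1 lower of 50 (2.0% each), the rise being an SMT3-like SUMO protein at 0.88 (adjusted p = 0.0222). All 50 are described, so both shares lay below those of described probesets. Photosynthesis had 0 higher and 2 lower of 60, RCABETA, a Rubisco activase, at -0.62 and a plastocyanin-like copper protein at -0.96 (adjusted p = 0.0354 and 0.0281). The list of aquaporins, apart from the TIP homologs above, had 0 higher and 1 lower of 32, PIP2-4 of the plasma membrane at -0.62 (adjusted p = 0.0367), and sucrose and starch metabolism had 1 higher and 0 lower of 21, of the phosphofructokinase family, at 0.68 (adjusted p = 0.0308). Heat shock proteins and chaperones had 1 higher and 0 lower of 36, the rise being PM31, and protein folding and processing in the secretory pathway had 1 higher and 0 lower of 14, the rise being VPE, the vacuolar processing enzyme that matures globulins (0.65, adjusted p = 0.0142). Its arrays read 4562, 4847 and 4368 at stage 2, against 3167, 3543 and 2206 at stage 1. None of 8 vegetative storage protein probesets was called, and 0 had an unadjusted limma p under 0.05, against 6654 of all 37701 probesets. VSPA read 1149, 1314 and 718 at stage 2, against 1775, 1315 and 1095 at stage 1.

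**Figure D3:**
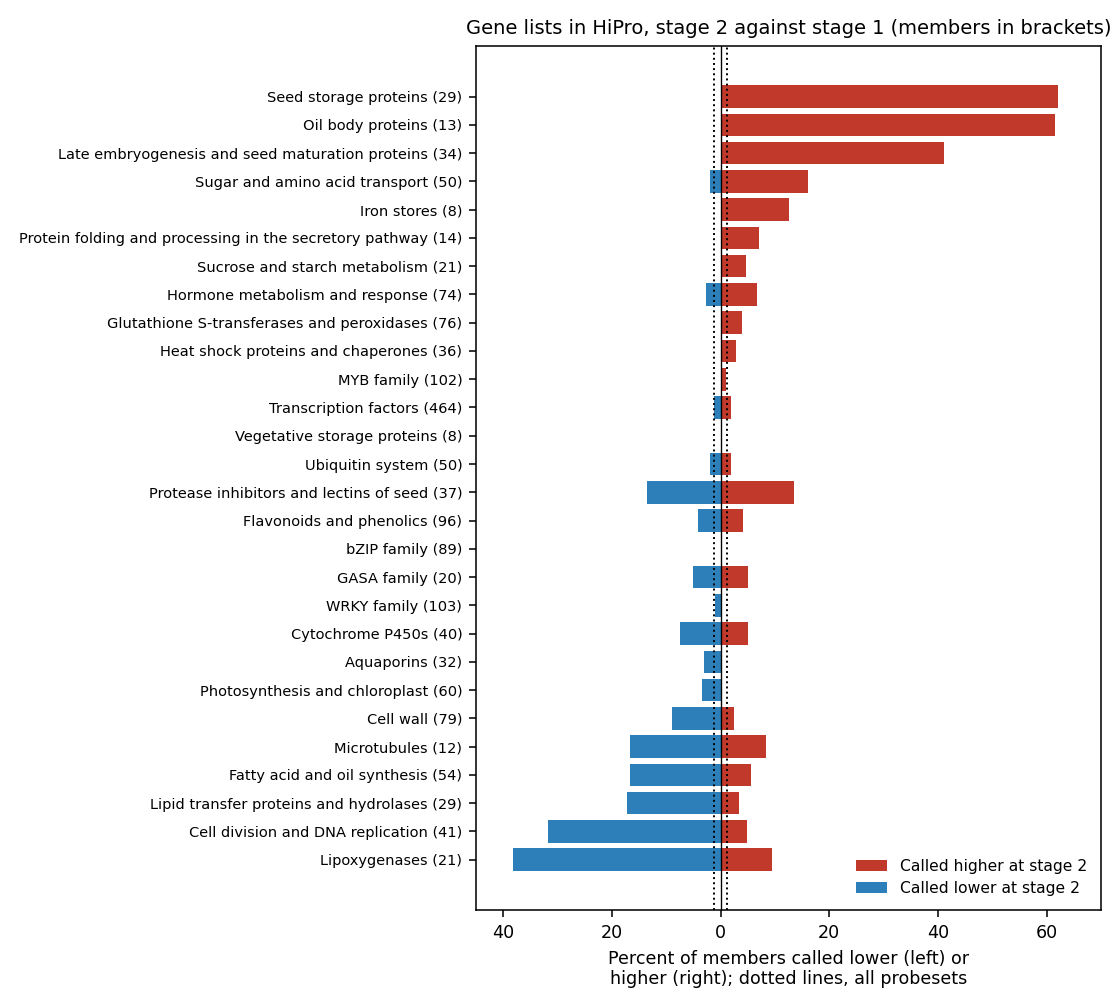
Share of each gene list called higher (red, right) or lower (blue, left) at stage 2 in HiPro, as a percent of its members, whose number stands in brackets; dotted lines mark the shares of all probesets, 1.21% and 1.29%. Seed storage proteins, with 18 of 29, have the largest share higher, and lipoxygenases, with 8 of 21, the largest share lower. Described probesets, which many lists hold, were called more often than all probesets, 11.9% higher and 6.11% lower.

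Markers of the tissues in a seed were compared beside these lists. The shares to set them against are 1.21% higher and 1.29% lower for all probesets, and 11.9% and 6.11% for described ones. Embryo and cotyledon markers, which overlap the storage and oleosin lists, moved one way where called: 19 of 26 probesets rose and 0 fell, and their summed signal was 170047 to 212412 at stage 2 and 87931 to 102070.0 at stage 1. These markers cover 10 of the 14 symbols listed. They leave out the oleosin genes P89 and P91, of which no probeset was called. As for those lists, the direction is no independent evidence. Seed coat markers had 1 of 7 higher, HPS, a hydrophobic protein that coats the seed surface (1.79, adjusted p = 0.0314), and 1 lower, DFR1, with a summed signal of 32482 to 33800.0 at stage 2 and 32447 to 39751 at stage 1 and a median log2 change of -0.35. That sum rests largely on SCB1, a seed coat protein (13495 to 18402 over the 6 arrays). HPS read 3961, 3373 and 1689 at stage 2, against 2094, 781 and 333 at stage 1, so its stages overlapped. Whether its transcript came from seed coat cells was not tested. ANR1 and DFR2, of the proanthocyanidin and anthocyanin branch, were wholly lower at stage 2 but did not pass (-1.04 and -0.78, adjusted p = 0.0921 and 0.283), and ANS2 gave -0.35 (adjusted p = 0.439). Leaf and pod wall markers had none of 15 called, with sums of 39352 to 43122 at stage 2 and 36811 to 39361 at stage 1. None of the 6 nodule and root symbols listed was found. SPCP1, not a listed symbol, entered by its nodulin-26 description on 3 probesets, which gave 0.34, -0.22 and 0.18 and were not called. They summed to 35037 to 41794 at stage 2 and 30371 to 38820.0 at stage 1. With single signals of 7572 to 16936, SPCP1 was bright in these seed samples, so its sum gives no value for nodule or root. The part of tissue proportions in the rises and falls was not tested. The 3′ minus 5′ log2 signal, a sign of RNA quality, was 5.39, 5.27 and 5.11 at stage 2 against 4.92, 5.19 and 4.63 at stage 1 for the actin control and 2.32, 2.31 and 2.31 against 2.32, 2.40 and 2.35 for the P450 control. For the sucrose-binding control it was 3.42, 3.81 and 3.70 against 6.83, 6.56 and 6.96, and there the 5′ probeset is itself among the largest rises. The GlutTrans control gave 0.44, 0.54 and 0.47 against 0.48, 0.83 and 0.58. The ubiquitin control varied more between arrays, with 5.49, 3.03 and 5.66 against 6.09, 4.20 and 3.98, and its 5′ probeset was dim (mean log2 signal 0.8).

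The same step in LoPro ran the same way for most of these genes, with fewer calls. In LoPro 448 probesets (1.19%) were called, 301 higher (0.798%) and 147 lower (0.39%). The 2 comparisons share no array, but they share the estimate of the spread. Of the HiPro rises, 154 were called higher in LoPro too, which is 33.7% of the HiPro and 51.2% of the LoPro rises, and of the HiPro falls 83 were shared, 17.0% of the HiPro and 56.5% of the LoPro falls. Without regard to calls, 445 of the 457 HiPro rises had a LoPro change above 0 (97.4%, against 48.9% of all probesets), and 461 of the 488 falls one below 0 (94.5%, against 51.1%). The median LoPro change was 0.64 over the HiPro rises and -0.53 over the HiPro falls. These probesets were chosen by their HiPro change, so the sizes in the lines are not compared. The LoPro counts rested on single pools: 4 higher and 2 lower were called without LoPro pool 1, 82 higher and 11 lower without pool 2 and 278 higher and 177 lower without pool 3. Leaving out 1 LoPro array gave 32 higher and 6 lower without replicate 1 of stage 2, 40 higher and 9 lower without its replicate 2, 459 higher and 328 lower without its replicate 3, 208 higher and 58 lower without replicate 1 of stage 1, 221 higher and 57 lower without its replicate 2 and 132 higher and 96 lower without its replicate 3.

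The difference of the step between the lines, tested as an interaction, passed for 0 probesets (0%) in limma, with 6.14% of them at an unadjusted p under 0.05 and a lowest adjusted p of 0.138. The median half-width of the 95% interval of the difference was 0.58 on the log2 scale over the HiPro calls before adjustment. After adjustment over all probesets much larger differences also failed to pass, such as that of a SOMT-9 probeset. Of the fits that left out 1 array or pool, that without LoPro replicate 3 of stage 1 called 10 probesets with a HiPro change above and 2 with one below that of LoPro, that without LoPro pool 3 called 6 above, and those without HiPro replicate 2 of stage 1 or LoPro replicate 1 of stage 2 called 1 each, also above. Storage proteins had 5 of 29 called higher in LoPro, with a median of 0.73, oil body proteins 5 of 13 with a median of 0.57, and cell division genes 6 of 41 called lower with a median of -0.73. LEA and maturation proteins had 0 of 34 called higher and 1 lower in LoPro with a median of 0.15, and 15 of them had an unadjusted interaction p under 0.05, though none passed. The one fall was PM29 (-1.26, adjusted p = 0.00348). LoPro pools differed widely for such genes. CG-BETA-1 read 2720.3, 10711 and 685 at stage 2, against 2416, 332 and 6.28 at stage 1 in LoPro, where stage 1 spanned more than 2 orders of magnitude (log2 change 3.98, adjusted p = 0.0692, and adjusted p = 0.815 for the interaction). PGMPM19 read 8455, 16014 and 4798 at stage 2, against 11536, 11257 and 867 at stage 1 in LoPro and gave 0.84 (adjusted p = 0.507, and adjusted p = 0.798 for the interaction). HiPro pools lay closer together at each stage for both genes.

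**Figure D4:**
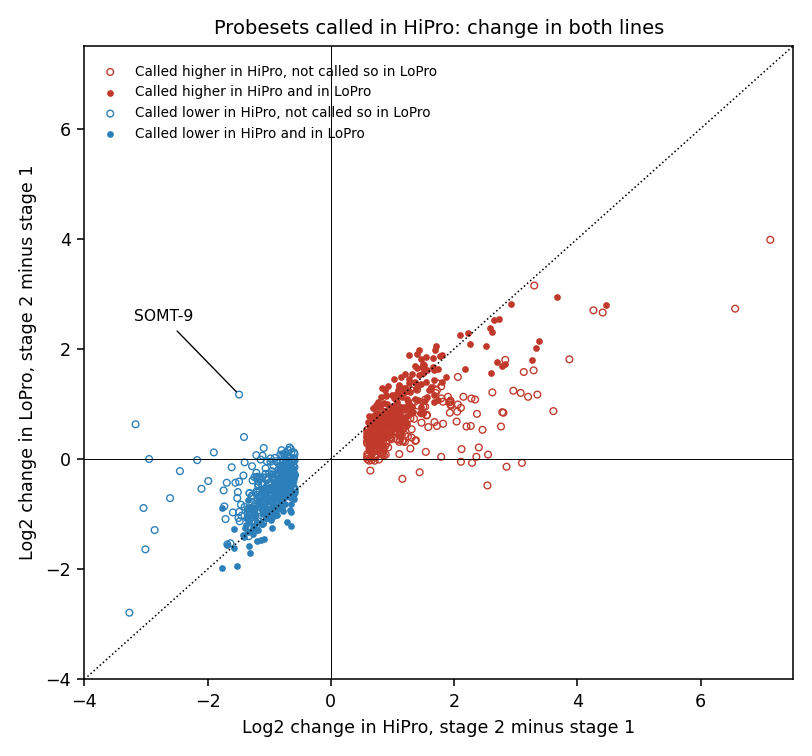
Log2 change, stage 2 minus stage 1, of the 945 probesets called in HiPro, in HiPro (horizontal axis) and in LoPro (vertical axis); red points rose and blue points fell in HiPro, filled where LoPro was called the same way, and the dotted line marks equal changes. 445 of the rises and 461 of the falls share their sign between the lines, and SOMT-9 is called in opposite directions.

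A probeset of SOMT-9, an O-methyltransferase gene, was the only one called in opposite directions in the lines and had the lowest interaction p. It read 27.9, 27.0 and 32.1 at stage 2, against 111, 70.4 and 67.9 at stage 1 in HiPro, a fall without overlap (log2 change -1.49, SE 0.28, adjusted p = 0.00734). In LoPro it read 82.7, 52.9 and 41.8 at stage 2, against 26.4, 35.0 and 17.4 at stage 1, a rise (log2 change 1.17, adjusted p = 0.0465). The difference between the lines was -2.66 (95% interval -3.50 to -1.81, adjusted p = 0.138) and did not pass. The 2 brighter probesets of the same symbol gave -0.07 and -0.36 in HiPro and -0.10 and -0.06 in LoPro and were called in neither line, so the probesets of this gene disagreed.

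The later stages of HiPro seed, of more than 100 and up to 300 mg, were set beside this step as levels, without a test. From stage 1 to stage 4 the geometric mean signal of CG-BETA-1 was 12.8, 1792, 17384 and 25878, that of GY3 193, 4297, 11957 and 16276, and that of SBP2 591, 6149, 14239.6 and 17751. For PM31 the means were 69.6, 709, 4258 and 17689.8, and for SFERH-2 131, 431, 2241 and 5407. These genes were higher at each stage than at the one before. The glucan 1,3-beta-glucosidase instead had its highest mean at stage 3, with 467, 2933, 5742 and 3684, and the cellulose synthase that rose had 453, 1550.0, 1519 and 915. GDH1 had 1038, 1656, 1067 and 676, highest at stage 2. Among the falls, means of LOX9 were 889, 261, 176 and 105, of the pectinesterase-like probeset 1120.3, 349, 102 and 35.9, of GASA33 1375, 485, 80.9 and 54.8 and of CDKB 1763, 668, 180.1 and 103, each lower at every stage. SODB had 299.7, 105, 127 and 149 and SOMT-9 80.9, 28.9, 79.6 and 80.7, so for both the lowest mean was that of stage 2.

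**Figure D5:**
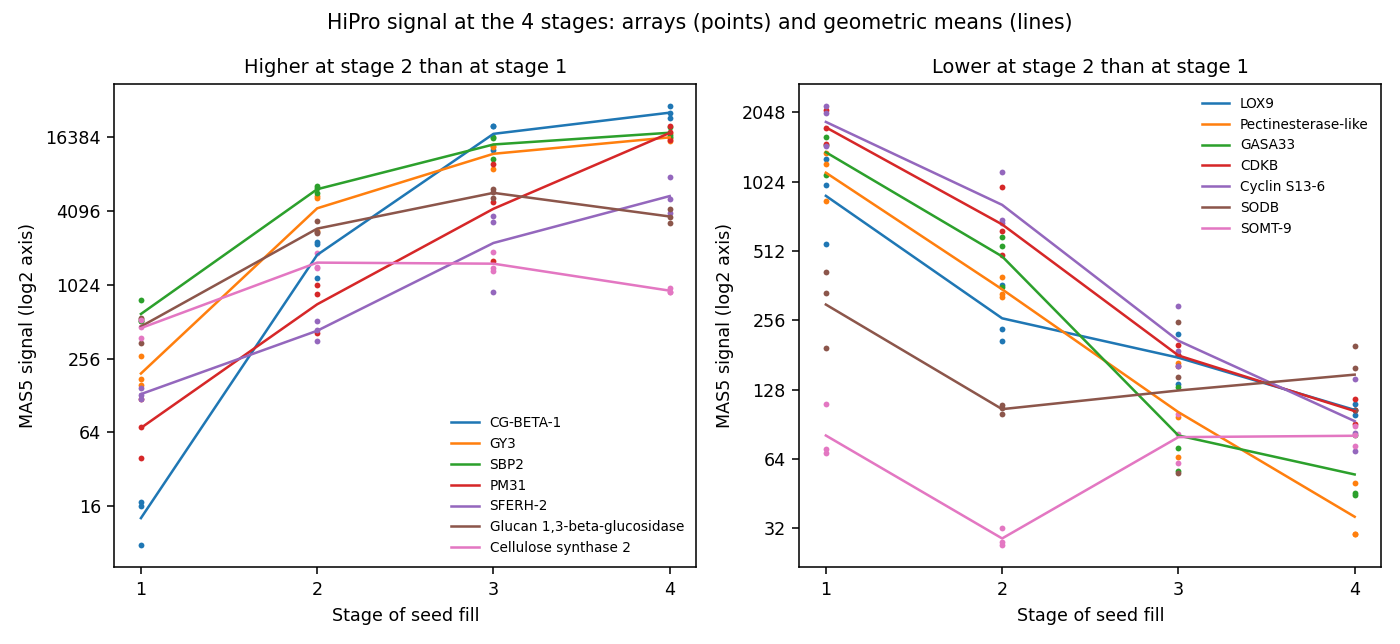
MAS5 signal (vertical axes, log2 scale) of 7 probesets called higher and 7 called lower at stage 2 against stage 1, at the 4 stages of HiPro seed (horizontal axes); points are arrays, 3 per stage, and lines join geometric means. CG-BETA-1 goes on rising to a mean of 25878 at stage 4, and SOMT-9 is lowest at stage 2, with a mean of 28.9.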

How the data were processed

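Seed RNA of 24 samples, 3 per line and stage, was hybridized to Soy GeneChip arrays. The deposited intensity values are linear probeset signals made by the authors with MAS5 (version not given in the sources used here), scaled per array to a 2% trimmed mean of 500.14 to 500.17, with medians of 198.4 to 228.7 and no quantile normalization; the methods name RMA as the main condensation, whose values were not used here. Of 37763 probesets 62 controls were left out. The log2 signal, without a floor (lowest signal 0.00052), entered a linear model (limma 3.58.1 under R 4.3.3, eBayes with a trend) of the means of line and stage plus the plant pool, with 12 residual degrees of freedom, and p-values were adjusted by Benjamini-Hochberg over all 37701 soybean probesets. By the methods the same plants gave every stage, so the pool was a block; residuals of arrays of the same number correlated at 0.138, 0.0373 and 0.143 in HiPro and 0.184, 0.0847 and 0.292 in LoPro. The model was tested on simulated data.

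Lists were built from the study's descriptions, which could be read only in part (1653 probesets), and from single gene symbols (8681 probesets, of the platform annotation); 28654 probesets have no symbol and 366 several. Lists overlap, and 4150.0 probesets can bind several transcripts (116 of the called). The members and lists were chosen with earlier results of these data known. Named are the 10 largest called rises and falls that have a name, arrays that do not overlap and a higher group mean of at least 215 (the median signal), up to 4 called members of each list in each direction, the lowest p in a list without calls, and the lowest interaction p; any other named probeset was chosen after its values were seen. Alternatives were quantile normalization, median centring, a floor at the 10th percentile (14.5), leaving out the dimmest 30% (11311), no replicate block, 12 or 6 arrays, no trend, the methods' t-test, other fold thresholds and leaving out pools or arrays.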

Additional observations from a re-analysis of the deposited data

Results flagged for a closer look

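A dim probeset of SOMT-9 moved in opposite directions in the lines: its log2 change was -1.49 in HiPro, where all 3 pools fell, and 1.17 in LoPro, where all 3 pools rose. All 3 pools of each line moved in opposite directions for 6 of the 945 HiPro calls and for 1156 of all 37701 probesets. The interaction test of the SOMT-9 difference did not pass (adjusted p = 0.138), and the signals of this probeset lay between 27.0 and 111 in HiPro. The 2 brighter SOMT-9 probesets gave -0.07 and -0.36 in HiPro and -0.10 and -0.06 in LoPro, with no call.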

How the results depend on the processing

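No call in HiPro turned its direction and stayed called under any alternative. Against 457 rises and 488 falls in HiPro, and 301 and 147 in LoPro, the fit with no replicate block gave 211 and 172 in HiPro and 115 and 48 in LoPro. Median centring gave 777 and 248 in HiPro. Without a trend of the spread, 312 and 299 were called in HiPro, 159 and 64 in LoPro and 0 and 1 for the interaction. The methods' t-test, run here on the MAS5 signals, gave 8 and 6 in HiPro and 1 and 0 in LoPro after Benjamini-Hochberg. The 12 arrays of the line gave 166 and 76 in LoPro, and the 6 arrays of the comparison 180 and 243; in HiPro they gave 413 and 348, and 474 and 660. A 2-fold threshold left 230 and 179 in HiPro and 160 and 68 in LoPro, and no fold threshold 696 and 666 in HiPro. Leaving out single pools or arrays gave 172 to 479 rises and 52 to 514 falls in HiPro, 4 to 459 and 2 to 328 in LoPro, and 0 to 10 and 0 to 2 for the interaction. These causes were not tested. The signs of a few probesets near 0 and not called turned: with quantile normalization P89 gave -0.07 and -0.06, P91 -0.07 and GY1 -0.29. GY1 gave -0.04 without HiPro pool 2, -0.03 without replicate 1 of stage 1 and -0.08 without its replicate 2, and GY7 -0.07 without pool 1 or its stage 1 array. Over pools and arrays left out, GY1 ran from -0.08 to 0.26 and GY7 from -0.07 to 0.48. Of 212 named probesets, 123 kept their direction and side of the threshold and 89 lost their call with no replicate block, 119, 117 and 85 lost it without HiPro pools 1, 2 and 3, 180 lost it with the methods' t-test, 177 kept, 28 lost and 7 gained it with centring, and 35 lost it with the floor. Signals near the 10th percentile, 14.5, such as CG-BETA-1 at stage 1, have no detection call to set them against background.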
